A study of Mus musculus with 8 samples.

Results

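Cells sorted as negative for a reporter of the eye-field gene Rax were compared between cultures given activin A and cultures given the Smoothened agonist SAG. The comparison was between 1 array of pooled RNA on each side, so 2 of the 8 arrays of the series carry it. Levels are log2 of the processed spot signal over the array's 75th percentile, so that 0 is that percentile, and a difference is the activin level minus the SAG level. A gene was counted as detected when the brighter of the arrays was well above its local background, and called higher or lower by a rule of size, a difference of at least 1 on the log2 scale (2-fold). With 1 array a side there is no test of the treatment, and no p-value is given.

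The study differentiated mouse embryonic stem cells towards forebrain and asked how activin and Nodal signalling bears on the formation of retinal progenitors. Both RAX-negative samples came from the male line K/l-EB5 (129/Ola background), which carries a green fluorescent reporter in Rax. Both had received the tankyrase inhibitor IWR-1-endo, an antagonist of Wnt signalling, at 5 µM from day 3, and 12 h later either activin A at 10 ng/ml or SAG at 100 nM. On day 10 the cells were dissociated, sorted on the reporter, and the RNA of 3 experiments was pooled before 50 ng was labelled and hybridised. The matching RAX-positive cells gave 2 further arrays. A culture of the line E14Tg2A (male, 129/Ola) given the Wnt inhibitor alone gave another, and cortex, diencephalon with hypothalamus, and eye of E12.5 Sv129s6 embryos of mixed sex, 3 embryos pooled, gave the last 3. No array holds RAX-negative cells of the reporter line with neither factor, so a gene higher with activin and a gene lower with SAG cannot be told apart in this pair. In sorted pools, fewer cells of a type and less RNA per cell cannot be told apart either.

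Activin A binds type II and type I serine/threonine kinase receptors, which phosphorylate Smad2 and Smad3; these join Smad4 and cofactors such as Foxh1 and switch on targets that include Nodal itself and the Nodal inhibitors Lefty1, Lefty2 and Cer1. In the early embryo the same pathway maintains the epiblast and patterns mesoderm and endoderm. SAG acts on the Hedgehog pathway downstream of its ligand: Smoothened, freed from Patched, lets Gli proteins activate targets such as Ptch1, Hhip and Gli1. In the forebrain, Hedgehog signalling is known for ventral identity, including Nkx2-1 in the hypothalamus and basal telencephalon.

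The arrays resolved the pair unevenly at the dim end. Of 59305 spots that were not controls, 59.5% were well above background with activin and 66.4% with SAG, the lowest share of the 8 arrays being that of the activin sample and the highest 79.3%. None of the 8 arrays had a saturated spot. Olfactory and vomeronasal receptor genes, expressed chiefly in sensory neurons of the nose, were above background for 11.7% of 1359 genes with activin and 16.3% with SAG. In the RAX-positive activin array, used below for values side by side, that share was 44.2%, against 23.8% in the RAX-positive SAG array. The median measurement error of a difference, from Agilent's error model, was 0.20 on the log2 scale (1.15-fold) where both arrays were above background and 0.68 where the dimmer array was not. That error covers the spot measurement and not the spread between cultures. The activin and SAG arrays sat on the same slide in different rows, so treatment and array position cannot be told apart. The culture given the Wnt inhibitor alone was on a different slide from all the other arrays, so culture and slide cannot be told apart in its levels.

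Of 34652 genes on the array, 25531 were detected in the pair. By the rule of size 3635 (14.2%) were higher with activin and 4978 (19.5%) were lower, 33.7% in either direction. The split depended on the scaling: 42.2% of called genes were higher in the main setting, 61.5% when arrays were scaled to their median, and 31.4% when the percentile was taken over probes above background on all 8 arrays. The median difference of all genes was 0.05, and 0.39 and -0.15 under those scalings. The excess of lower genes was at the dim end, since 2776 were higher and 2568 lower among the 21531 genes above background on both arrays, and 859 higher and 2410 lower among the other 4000. Where the dimmer array was not well above background, a fold is given below as "at least", set against the lowest level well above background on that array or the gene's own level, whichever was higher.

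**Figure D1:**
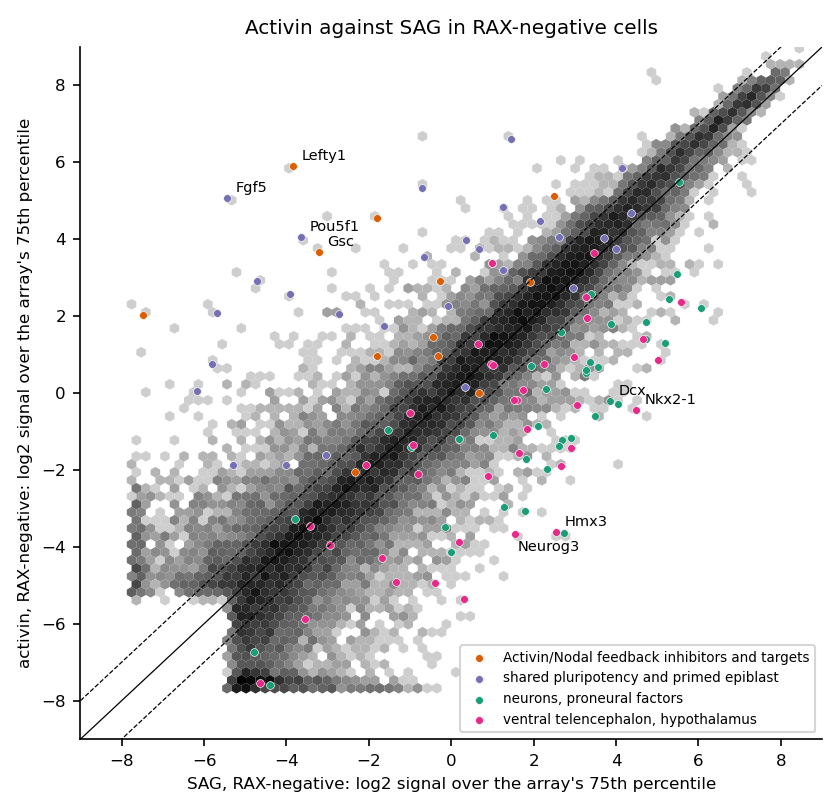
Level of each detected gene in RAX-negative cells given SAG (horizontal axis) and activin (vertical axis), both log2 over the array's 75th percentile, with all detected genes as grey hexagons and 4 classes of listed genes as coloured points. The solid line marks equal levels and the dashed lines a difference of 1; Lefty1, Fgf5, Pou5f1 and Gsc lie far above the upper dashed line, and Hmx3, Neurog3, Nkx2-1 and Dcx far below the lower.

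Genes that activin and Nodal signalling is known to induce were higher with activin. Of 13 detected feedback inhibitors and direct targets, 10 were higher and none was lower, with a median difference of 2.62 against 0.05 for all genes. Lefty1, a secreted Nodal inhibitor, read 5.89 with activin and -3.84 with SAG in RAX-negative cells, 2.49 and -6.29 in RAX-positive cells, 0.16 with the Wnt inhibitor alone, and -5.44, -4.94 and -4.33 in cortex, diencephalon with hypothalamus, and eye. Both activin arrays stood above every other array, and the RAX-positive SAG value was not well above background. The difference in RAX-negative cells was 9.73 ± 0.23 (error of measurement), an 851-fold excess.

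Lefty2, its neighbour gene and a second Nodal inhibitor, read 4.54 with activin and -1.81 with SAG, 0.67 and -1.67 in RAX-positive cells, 0.93 with the inhibitor alone, and between -2.73 and -2.22 in the tissues, which made it 81.9-fold higher. Cer1, an antagonist of Nodal, BMP and Wnt, read 2.04 with activin, -2.39 in RAX-positive activin cells and -1.47 with the inhibitor alone, and was not above background on the other 5 arrays. It was at least 177-fold higher than with SAG. Gsc, a homeobox gene of the organizer, read 3.67 and -3.21 in RAX-negative cells, 0.65 and -3.84 in RAX-positive cells, -1.77 with the inhibitor alone, and -5.75, -1.81 and -2.57 in the tissues, a difference of 6.88 ± 0.21 or 118-fold. For all 4 of these genes the RAX-negative activin array was the highest of the 8.

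Among the others, Fst, which binds activin and blocks it, was 9.099-fold higher, Eomes 6.80-fold, Tgif1, a Smad corepressor, 6.13-fold by a probe with a run of 16 bases found in the promoter windows of 82 genes, and Pmepa1 2.47-fold. Smad7, the inhibitory Smad, read 1.47 and -0.45 in RAX-negative cells, 1.29 and -0.36 in RAX-positive cells, -0.36 with the inhibitor alone and between -0.26 and 0.34 in the tissues. It was 3.79-fold higher, and both activin arrays again stood above the rest. Skil (0.99), Ski (0.29) and Fstl3 (-0.68) did not reach a difference of 1, and Bambi and Mixl1 were not detected.

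The ligands and receptors divided by gene. Nodal itself read 2.73 with activin and -2.79 with SAG, -0.28 and -2.99 in RAX-positive cells, 0.60 with the inhibitor alone and between -3.48 and -3.12 in the tissues. It was 46.0-fold higher, and the second highest array was the culture given the Wnt inhibitor alone. Of 8 detected ligands and co-receptors 4 were higher and 2 lower, with a median of 0.63 that was -0.17 when only genes above background on both arrays were kept and 2.64 with the mean of all probes. Cfc1, a Nodal co-receptor, was at least 39.98-fold higher, Inhba, which encodes the activin A subunit, 11.1-fold, and Gdf3, a Nodal-related ligand, 2.69-fold. Inha and Gdf1 were 2.92-fold and 2.08-fold lower. Most of the machinery that receives the signal was not called: Smad2 (-0.40), Smad3 (-0.03), Smad4 (0.50), Acvr1b (-0.65) and Acvr2b (-0.06) stayed within the rule, and the type II receptor Acvr2a was 2.16-fold lower. Second probes read -1.13 for Acvr1b and -0.51 for Acvr2a. The type I receptor Acvr1c was called lower at a measured -2.48, but -0.39 with the activin array at its detection level. The cofactor Foxh1 was the 1 gene of the 8 called higher, at 1.21 with activin and -3.56 with SAG and between -4.74 and -1.18 on the other 6 arrays, 27.2-fold higher.

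**Figure D2:**
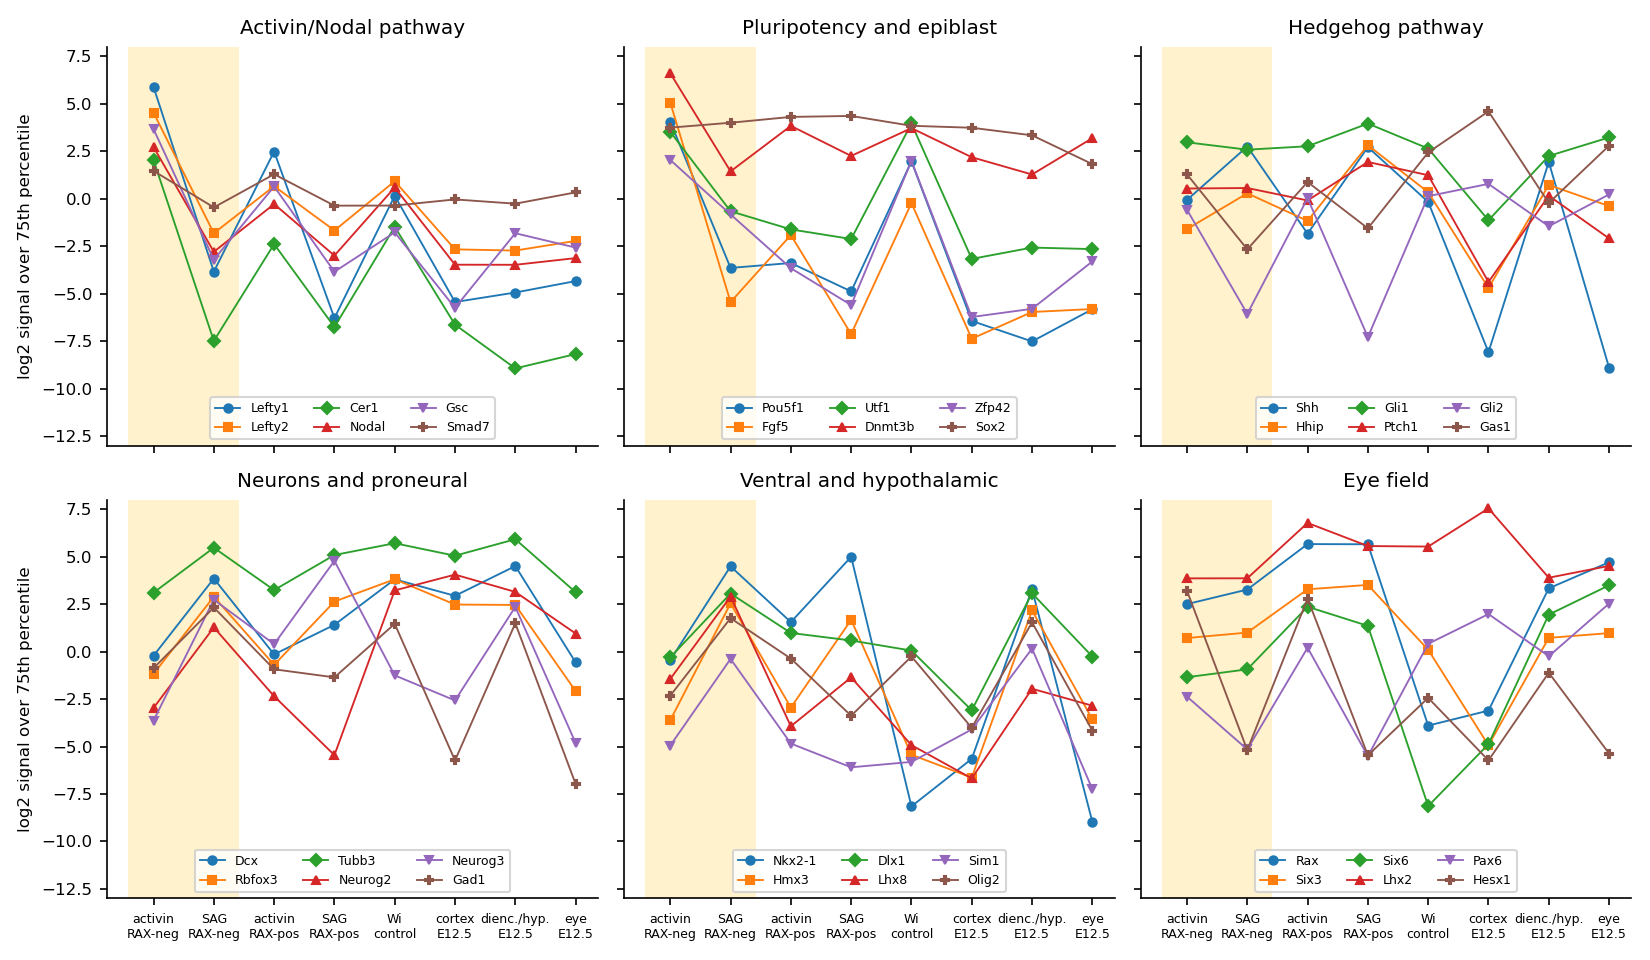
Levels on the 8 arrays (log2 over the array's 75th percentile) of 6 genes in each of 6 groups, with the compared arrays shaded; lines join the values of 1 gene and mark no order of the arrays. Lefty1, Gsc and Pou5f1 peak on the RAX-negative activin array, Neurog3 and Nkx2-1 are high on both SAG arrays, and Gli1 stays between 2.26 and 3.97 on every array but cortex.

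Genes of the pluripotent state formed the second group that was higher with activin. Of 18 genes shared by the naive and primed pluripotent states, all detected, 15 were higher and none was lower, with a median difference of 3.40. The list's median level was 2.42 with activin and -1.17 with SAG, -0.33 and -2.78 in RAX-positive cells, 1.05 with the inhibitor alone, and -3.26, -2.18 and -1.75 in cortex, diencephalon with hypothalamus, and eye. The activin RAX-negative pool was the highest of the 8 arrays on that measure.

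Pou5f1, which encodes Oct4, read 4.06 with activin and -3.64 with SAG, -3.38 and -4.88 in RAX-positive cells, 1.98 with the inhibitor alone, and -6.43, -7.51 and -5.82 in the tissues. It was high on the RAX-negative activin array and on the inhibitor array and low on every other array, and cortex and diencephalon were not above background. The difference was 7.70 ± 0.23, or 208-fold. The probe of Pou5f1 lies at chr17:35647280-35647340 (mm9, plus strand), and it shares a run of 25 bases, in capitals, with the probe of the near copy Pou5f1-rs4 at chr3:129137407-129137466 (plus strand), of which the first 30 bases are shown.
Pou5f1: AAGTATTGAGTATTCCCAACGAGAAgagta
Pou5f1-rs4: agatcAAGTATTGAGTATTCCCAACGAGAA
The near copy read 177-fold higher, and how much of either signal comes from the other gene was not tested.

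Utf1, a chromatin factor of pluripotent cells, read 3.53 and -0.66 in RAX-negative cells, -1.61 and -2.12 in RAX-positive cells, 3.97 with the inhibitor alone and between -3.17 and -2.57 in the tissues. It was 18.2-fold higher. L1td1, an RNA-binding protein, was 65.4-fold higher, at 5.33 against -0.70, and Zscan10, a zinc-finger factor, 89.6-fold, with a second probe at 4.80. Eras, a constitutively active Ras of embryonic stem cells, was at least 183-fold higher, and the forkhead gene Foxd3 at least 73.1-fold. Epcam and Cdh1, adhesion molecules of epithelia, were 27.2-fold and 10.3-fold higher, and the let-7 regulator Lin28a 12.1-fold. Sall4 (8.52-fold, with another probe at 0.90), Tdh (5.05-fold), Trim71 (5.01-fold), Dppa4 (4.44-fold) and Dppa2 (at least 10.8-fold) were also higher. Sox2, which neural progenitors share with pluripotent cells, read 3.75 and 4.01 and was not called, and neither was Lin28b (0.32).

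Nanog, the homeobox factor of the naive state, depended on which of its probes was read. The probe chosen by the rule, the one with the highest mean signal over the 8 arrays, gave -2.01 with activin and -1.11 with SAG, a difference of -0.89, and ranged over only 1.57 between all 8 arrays. The other probes gave differences of 6.60 (at least 97.05-fold, with SAG not above background) and 6.27 (77.1-fold, 4.48 against -1.79). They are shown because Nanog is called or not according to the probe, in the first 30 bases, at chr6:122663676-122663735, chr6:122663514-122663573 and chr6:122664590-122664649 (mm9, plus strand).
Nanog, A_55_P2007699, chosen by the rule: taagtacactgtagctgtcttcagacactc
Nanog, A_55_P2007703, second probe: accccacaagccttggaattattcctgaac
Nanog, A_55_P2007708, last probe: ccatgatgaaccgatgccagctggactagt
Over the full 60 bases, the chosen probe holds a run of 16 bases that also occurs in the promoter windows of 44 mouse genes in RefSeq, the second probe in that of 1 gene and the last in none. The last probe read 4.48 and -1.79 in RAX-negative cells, -1.46 and -3.31 in RAX-positive cells, 2.89 with the inhibitor alone, and -3.89, -5.15 and -6.80 in the tissues, high on the same arrays as Pou5f1.

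Tdgf1, the Nodal co-receptor Cripto, showed the same division. Its chosen probe at chr9:110842722-110842781 (mm9, minus strand) read 0.15 and 0.32, a difference of -0.17, and ranged over 2.09 across the 8 arrays. The probe at chr9:110842866-110842925 read at least 15.95-fold higher with activin, and the probe at chr9:110843099-110843158 read 23.96-fold higher, at 0.32 against -4.26.
Tdgf1, A_55_P1968028, chosen by the rule: ctacacagaaaccctgtctcggggagaaaa
Tdgf1, A_55_P2058540, second probe: gttattattaaatcccagtgtgcaactgga
Tdgf1, A_55_P2183147, last probe: tgatgctcacagtgaatccctaatgttacc
The chosen probe holds a run of 16 bases found in the promoter windows of 12 genes and each of the others a run found in 1. Among other genes named as called, another probe was not called for Fgf8 (0.69), Otx2 (0.68), Tfcp2l1 (0.66) and Msi1 (0.20), and among those named as not called, another probe read lower for Nhlh1 and Notch1 (both -2.23) and Sp8 (-1.26). Across the array, probes of a gene often differed: of 7908 genes with at least 2 detected probes, 2750 had probes more than 1 apart in their difference, and 855 were not called while another probe differed at least 4-fold. Probes with such a run shared with at least 10 genes read 2.81% of those 855 genes and 2.55% of the 7908, and the part of shared sequence in the disagreement was not tested further.

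**Figure D3:**
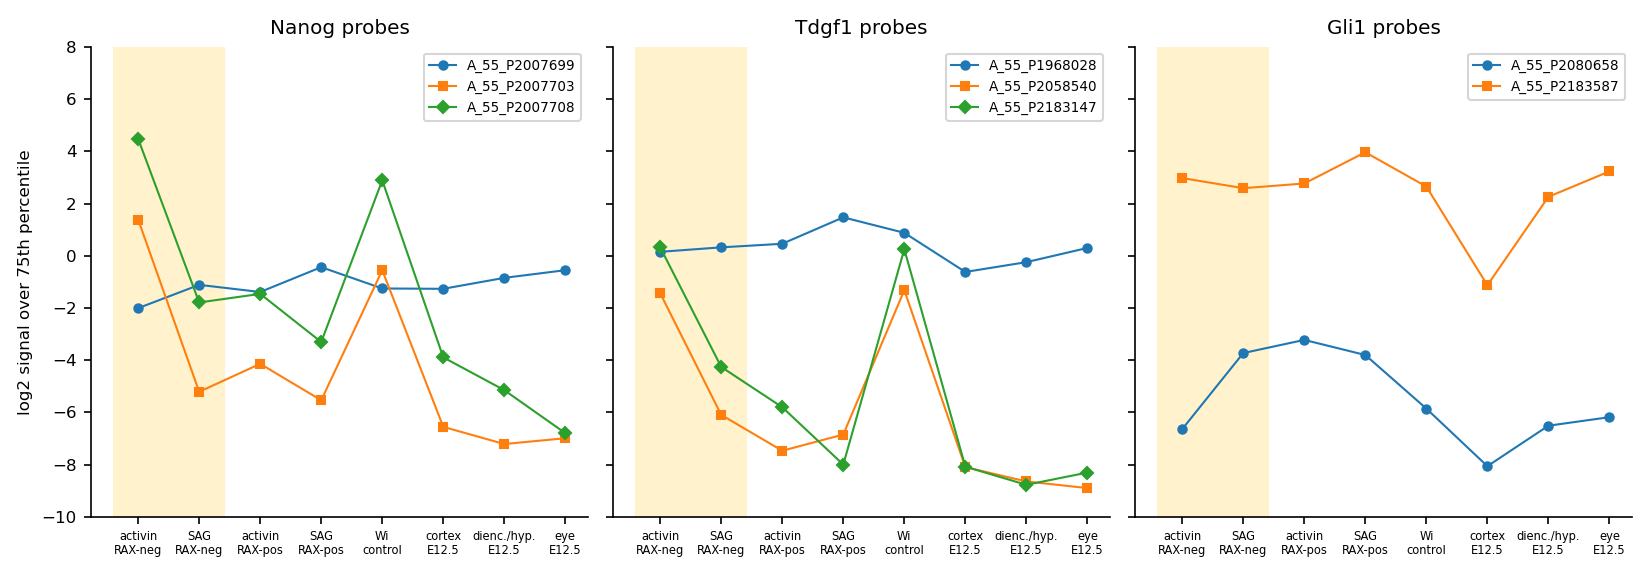
Levels on the 8 arrays (log2 over the array's 75th percentile) of each probe for Nanog, Tdgf1 and Gli1; lines join the values of 1 probe and mark no order, and the compared arrays are shaded. For Nanog the chosen probe spans 1.57 over the arrays while the last spans 11.3.

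Genes of the naive state were higher with activin in 11 of 16 cases and lower in 1, with a median of 1.89. Zfp42 (Rex1) read 2.05 and -0.82 in RAX-negative cells, -3.65 and -5.60 in RAX-positive cells, 1.99 with the inhibitor alone, and -6.23, -5.80 and -3.30 in the tissues, and was 7.30-fold higher. Dppa5a was 6.73-fold higher, but its highest level, 7.03, was on the inhibitor array and not on the activin array, which read 4.33. Tcl1 (7.82-fold), Klf2 (6.73-fold), Fgf4 (6.44-fold), Tfcp2l1 (5.61-fold), Esrrb (2.64-fold) and Klf4 (2.49-fold) were also higher. Nr0b1 was 3.26-fold lower, and Klf5, Tbx3 and Gbx2 were not called.

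Genes of the primed epiblast, the later pluripotent state that depends on activin, were higher in 8 of 10 cases and lower in none, with a median of 2.78. Fgf5, the classic marker of that state, read 5.07 with activin and -5.44 with SAG, -1.91 and -7.13 in RAX-positive cells, -0.22 with the inhibitor alone, and -7.37, -5.96 and -5.81 in the tissues. Neither SAG array nor cortex was above background, and the difference was at least 1452-fold. Fgf15 was 198-fold higher, at 2.92 against -4.71, and read 1.63 and -3.37 in RAX-positive cells. It read 2.95 with the inhibitor alone and -1.68, -0.73 and 3.32 in the tissues. The inhibitor array and the eye were thus above the RAX-negative activin array. The de novo methyltransferase Dnmt3b read 6.62 and 1.45, 3.84 and 2.26 in RAX-positive cells, 3.73 with the inhibitor alone and between 1.28 and 3.20 in the tissues, 36.1-fold higher and at its highest on the RAX-negative activin array. The zinc-finger gene Zic2 was at least 44.8-fold higher, Otx2 3.25-fold and Pou3f1 2.75-fold. Dnmt3a (-0.22) and Sall2 (0.34) were not called. Of 10 genes of germ cells 5 were higher and 1 lower, against 14.2% and 19.5% of all genes. The synaptonemal gene Sycp3 (37.2-fold) and Mael (at least 8.64-fold) led the higher genes.

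The octamer ATTTGCAT, the sequence that Oct4 and other POU factors bind, was searched on both strands in the promoter windows of RefSeq (250 bases before the start site and 50 after, GRCm38.p6). It occurred in 1.74% of all 32851 windows, in 17 of 435 windows (3.91%) of listed genes, in 4 of 119 windows (3.36%) of listed genes higher with activin and in 2 of 123 (1.63%) of those lower. Of 479 listed genes 349 matched a window. The windows of Zfp42 (chr8:43306960-43307259, minus strand), 7.30-fold higher, and of the Notch ligand Dll1 (chr17:15375774-15376073, minus strand), lower with activin, are shown because both carry the match, in capitals, at 186 and 219 bases before the start site.
Zfp42: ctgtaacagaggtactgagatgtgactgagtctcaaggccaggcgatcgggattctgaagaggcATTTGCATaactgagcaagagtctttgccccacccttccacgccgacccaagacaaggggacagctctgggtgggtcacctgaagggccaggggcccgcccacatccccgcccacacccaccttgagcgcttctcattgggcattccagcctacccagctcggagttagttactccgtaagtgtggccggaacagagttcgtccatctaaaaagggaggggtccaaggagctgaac
Dll1: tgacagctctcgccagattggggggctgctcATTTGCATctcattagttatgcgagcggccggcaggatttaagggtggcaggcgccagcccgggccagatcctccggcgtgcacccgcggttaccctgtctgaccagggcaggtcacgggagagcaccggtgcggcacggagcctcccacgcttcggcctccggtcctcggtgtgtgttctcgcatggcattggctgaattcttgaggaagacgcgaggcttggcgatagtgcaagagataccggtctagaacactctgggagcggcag
A match is a description of the letters and not a binding site. For factors of the signals themselves, the Foxh1 letters AATCCACA were in 1 of the 119 windows (Cdon) and none of the 123, against 0.855% of all, and the Gli letters GACCACCCA in none of 435 windows of listed genes, against 0.253% of all. The Smad letters CAGACA, short enough to be common, were in 15.97% and 21.1% of those windows and 21.0% of all.

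Markers of the embryonic germ layers were higher with activin for part of each list, read against 14.2% of all genes higher and 19.5% lower. Of 13 detected genes of primitive streak and mesoderm (18 listed) 6 were higher and 1 lower, with a median of 0.80, which was -0.03 after normexp background correction. The T-box gene Tbxt (Brachyury) read -0.94 and -4.66 in RAX-negative cells, -4.85 and -7.65 in RAX-positive cells, 1.36 with the inhibitor alone and between -5.64 and -5.42 in the tissues, and was 13.2-fold higher. Fgf8 was 14.4-fold and Wnt3 3.67-fold higher, and Mesp1, Msgn1 and Mixl1 were not detected. The summed signal of the list was 27.6 with activin and 3.39 with SAG, in units of each array's 75th percentile.

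Of 16 detected endoderm genes 8 were higher and 3 lower, against 14.2% and 19.5% of all genes. The median was 1.05, and 0.23 when both arrays had to be above background. The number higher ran from 3 to 9 over the settings. Sox17 read 0.02 with activin and was not above background with SAG, at least 43.9-fold higher, and Hhex was at least 39.8-fold, Gata6 19.1-fold, Hnf4a at least 5.96-fold and Gata4 3.57-fold higher. With normexp, Hnf4a (0.50) and Gata4 (0.74) were not called. The forkhead gene Foxa2 did not follow them, at 3.99 and 3.43, nor did Foxa1 (3.88-fold lower) and the endocytic receptor Cubn (8.81-fold lower). Afp was not detected. The summed signal of this list was nearly the same on both arrays, 28.6 and 28.5, and Foxa2 is also expressed in floor plate.

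Other lineages were mixed, read against 14.2% of all genes higher and 19.5% lower. Among 22 neural crest and mesenchyme genes 8 were higher and 4 lower (median 0.35): smooth muscle actin Acta2 was 18.8-fold, the crest factor Pax3 at least 15.3-fold and Prrx2 6.25-fold higher, while Sox9 (-1.34) and Foxc2 (-2.09) were lower. The keratins Krt18 and Krt8 of simple epithelia were 5.35-fold and 3.89-fold higher. They were themselves the only 2 higher of 8 detected trophoblast genes, with 1 lower. Of 12 detected surface ectoderm and placode genes 3 were higher and 1 lower. Of 10 endothelial and blood genes 2 were higher and 2 lower, and their summed signal was 3.94 and 3.60 against 406 to 679 in the embryonic tissues; Hba-x and Hbb-y, embryonic globins, were not detected in either culture. The part of these cell types in the differences of the other lists was not tested.

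Neuronal genes had the largest share lower with activin among the 37 lists. Of 20 pan-neuronal genes 18 were lower and none was higher, with a median difference of -2.86. The summed signal of the list was 91.6 with activin and 386 with SAG, 53.0 and 154 in RAX-positive cells, 526 with the inhibitor alone, and 177, 517 and 45.5 in cortex, diencephalon with hypothalamus, and eye. The RAX-negative activin pool was thus above its RAX-positive partner and the eye and below the other 5 arrays.

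Dcx, a microtubule protein of migrating young neurons, read -0.22 with activin and 3.85 with SAG, -0.15 and 1.41 in RAX-positive cells, 3.81 with the inhibitor alone, and 2.94, 4.51 and -0.56 in the tissues. It was 16.8-fold lower, and the activin pools and the eye were the low arrays. Rbfox3, which encodes the nuclear antigen NeuN, read -1.18 and 2.90, -0.70 and 2.64 in RAX-positive cells, 3.81 with the inhibitor alone and 2.48, 2.46 and -2.08 in the tissues, also 16.8-fold lower. Tubb3, the neuronal tubulin, was 5.16-fold lower, with 3.11 and 5.47. Mapt (tau) was 20.1-fold lower, and the secretory and synaptic genes Scg2 (15.8-fold), Syt1 (14.9-fold), Gap43 (14.6-fold) and Rtn1 (14.3-fold) lay close together. Stmn2, at 5.48 and 5.53, and Nefl (-0.83) were the exceptions.

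Factors that commit progenitors to neurons were lower by similar sizes. Of 17 detected proneural and early neuron factors 14 were lower and none was higher, with a median of -2.98. Neurog3, a proneural factor of the ventral hypothalamus among other tissues, read -3.63 with activin and 2.73 with SAG, 0.39 and 4.78 in RAX-positive cells, -1.25 with the inhibitor alone, and -2.57, 2.36 and -4.81 in the tissues. Both SAG arrays and the diencephalon were its high arrays, and the difference was -6.37 ± 0.23, or 82.5-fold lower. A second Neurog3 probe, not above background with activin, read -2.59, and the mean of the probes gave -4.48. Neurog2 read -2.97 and 1.28, but in RAX-positive cells -2.35 and -5.45, so it was 18.9-fold lower here and 8.59-fold higher there. St18 (28.7-fold), Onecut1 (19.7-fold), Myt1 (17.7-fold), Ebf3 (17.1-fold), Neurod1 (10.02-fold) and Insm1 (7.39-fold) were lower, and Neurog1, Nhlh1 and Pou4f1 were not called.

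The genes of the transmitter systems followed. Of 13 detected genes 10 were lower and 1 was higher, with a median of -1.70. Gad1, which makes GABA, read -0.87 and 2.33 in RAX-negative cells, -0.93 and -1.36 in RAX-positive cells, 1.46 with the inhibitor alone, and -5.74, 1.49 and -6.97 in the tissues, 9.17-fold lower. The vesicular GABA transporter Slc32a1 was 10.5-fold, Gad2 7.38-fold, the glutamate transporter Slc17a6 6.15-fold and tyrosine hydroxylase Th 5.82-fold lower. The choline transporter Slc5a7 was 19.4-fold higher by its chosen probe, but its other probe read 0.55 and was not called.

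Neuropeptides of the hypothalamus were mixed. Of 16 detected genes 8 were lower, 2 higher and 6 not called, with a median of -0.98. Of all genes, 19.5% were lower and 14.2% higher. Npy (17.3-fold), Nts (13.9-fold), Ghrh (6.65-fold) and Sst (4.39-fold) were lower, and Pomc (-0.04) did not differ by the rule. Trh, the thyrotropin-releasing hormone, read 6.79 with activin and -0.68 with SAG, 0.63 and -5.36 in RAX-positive cells, 4.53 with the inhibitor alone, and -6.01, 1.61 and -2.65 in the tissues. It was 177-fold higher with activin, and its second highest array was the inhibitor culture. Galanin (Gal) was 12.0-fold higher, at 3.40 and -0.18, and nearly the same pair of levels, 3.03 and -0.23, was read in RAX-positive cells.

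Transcription factors of the ventral forebrain were lower with activin in most cases. Of 15 ventral telencephalic genes 13 were lower and none was higher (median -3.21), and of 24 detected hypothalamic genes 16 were lower and 1 higher (median -1.68), with the other 7 not called. Nkx2-1, which both territories share, read -0.45 and 4.49 in RAX-negative cells, 1.55 and 4.99 in RAX-positive cells, and -8.15, -5.65, 3.29 and -8.97 with the inhibitor alone and in cortex, diencephalon and eye. It was high on both SAG arrays and in the diencephalon, lower on both activin arrays, and not above background with the inhibitor alone or in the eye. The difference was 30.6-fold.

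In the ventral telencephalic list, Lhx8, a factor of cholinergic neurons, read -1.44 and 2.90 and was 20.2-fold lower; the SAG value was the highest of the 8 arrays. Sp9 was 16.7-fold and the interneuron genes Dlx6, Dlx1, Dlx2 and Dlx5 11.9-fold, 10.3-fold, 9.52-fold and 9.24-fold lower. Dlx1 read 0.98 and 0.59 in RAX-positive cells, where it was not called. Sp8 (-0.22) was not called. In the dorsal list 5 of 13 genes were lower and 2 higher, against 19.5% and 14.2% of all genes. Neurog2 (-4.24), Bcl11b (-2.01), Lhx9 (-1.68), Reln and Wnt8b were lower. Dmrt3 was at least 9.81-fold higher and Eomes (2.76) was higher, and Emx2 (-0.46) and Tbr1 (-0.10) were not called. Trp73 (0.79) was not called either, but another of its probes read 5.68.

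Among hypothalamic genes, Hmx3 read -3.62 with activin and 2.54 with SAG, -2.95 and 1.67 in RAX-positive cells, -5.43 with the inhibitor alone, and -6.64, 2.17 and -3.57 in the tissues, high on the SAG arrays and in the diencephalon only. It was 71.5-fold lower, its neighbour Hmx2 at least 50.4-fold, and Nkx2-4 37.0-fold. Pou3f2 was 23.8-fold and Nr5a1, a factor of the ventromedial nucleus, 8.28-fold lower. Sim1, needed for the paraventricular nucleus, read -4.95 and -0.39 and was above -1 elsewhere only in the diencephalon (0.16), a difference of 23.6-fold. Six3 (-0.29) and Six6 (-0.41), which the hypothalamus shares with the eye field, were not called.

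Floor plate genes were mostly lower and glial genes were mixed. Of 10 floor plate genes 8 were lower and none was higher (median -2.49): Corin read -4.32 and 0.96 and between -6.54 and -2.86 on the other 6 arrays, 38.9-fold lower, Spon1 was 9.76-fold, Ntn1 4.49-fold and Slit2 4.43-fold lower, and Foxa2 and Lmx1a were not called. Of 9 glial genes 4 were lower and 2 higher, against 19.5% and 14.2% of all genes. Their median of -0.49 was 0.02 after quantile normalization. Apoe (1.56) and Aldh1l1 (1.54) were the higher genes. Olig2, a factor of motor neuron and oligodendrocyte progenitors, read -2.32 and 1.76 in RAX-negative cells and -0.37 and -3.38 in RAX-positive cells, and Olig1 -4.11 and 0.60, then -1.49 and -4.57. They were 16.9-fold and 26.1-fold lower with activin in RAX-negative cells and 8.06-fold and 8.45-fold higher in RAX-positive cells.

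The feedback and direct targets of Hedgehog, the pathway that SAG acts on, did not separate the pair by their median. Of 14 such genes 1 was higher, 4 were lower and 9 were not called with activin. Of all genes, 14.2% were higher and 19.5% lower. The median was 0.02, ranged from -0.52 to 0.35 over the other settings and changed sign in 4 of 12. Nkx2-1 (-4.94), Hhip, Nkx2-2 (-1.30) and Ccnd1 (-1.05) were the lower genes. Gli1, the usual readout, read 2.98 and 2.59 in RAX-negative cells, 2.77 and 3.97 in RAX-positive cells, 2.65 with the inhibitor alone, and -1.13, 2.26 and 3.23 in the tissues. Its difference was 0.39 ± 0.20 in RAX-negative cells and -1.20 in RAX-positive cells. A second Gli1 probe, not above background with activin, read at least 3.19-fold lower.

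Ptch1, the receptor that Hedgehog signalling induces, read 0.54 and 0.57 in RAX-negative cells, -0.09 and 1.94 in RAX-positive cells, 1.24 with the inhibitor alone, and -4.38, 0.16 and -2.09 in the tissues, so it did not separate the RAX-negative arrays. Hhip, a Hedgehog-binding inhibitor, did: it read -1.60 and 0.29, -1.16 and 2.83 in RAX-positive cells, and 0.35 with the inhibitor alone, and was 3.70-fold lower. The RAX-positive SAG array was the highest of the 8 for Gli1, Ptch1 and Hhip. Nkx2-9, a ventral homeobox target, was instead 13.3-fold higher with activin, at 1.02 and -2.71.

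Upstream of these, Shh read -0.06 with activin and 2.75 with SAG, -1.83 and 2.72 in RAX-positive cells, -0.16 with the inhibitor alone, and 1.94 in the diencephalon; cortex and eye were not above background. It was 7.04-fold lower with activin. Some of the co-receptors went the opposite way: Gas1, at 1.29 and -2.66, was 15.5-fold higher by its chosen probe, with other probes at 0.43 and 1.20, Lrp2 8.67-fold and Cdon 3.07-fold, while Boc (0.10) and Smo (0.41) were not called. Of the transducers, Gli2 read -0.57 with activin, was not above background on either SAG array and lay between -1.45 and 0.79 on the other 5. It was at least 29.0-fold higher, and Gli3 was 3.09-fold higher.

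Eye-field genes checked the sort as well as the treatment. Rax, the gene the cells were sorted on, read 2.50 and 3.27 in RAX-negative cells against 5.67 and 5.66 in RAX-positive cells, and -3.90 with the inhibitor alone. The RAX-negative pools were thus low and not empty of Rax RNA, and activin and SAG did not differ by the rule (-0.77). Of 19 eye-field and retinal genes 5 were higher with activin and 2 lower, set against 14.2% and 19.5% of all genes, with a median of 0.10 that changed sign in 2 of 12 settings. Lhx2 read 3.86 on both arrays. Pax6 read -2.37 and -5.16 in RAX-negative cells, 0.20 and -5.51 in RAX-positive cells, 0.41 with the inhibitor alone, and 1.98, -0.24 and 2.53 in the tissues. It was 6.89-fold higher with activin (difference 2.78 ± 0.36) while staying below its inhibitor and tissue levels. With normexp background correction Pax6 (0.62), Mitf (0.86) and Aldh1a3 (0.09) were not called, and no gene of the list was higher. In the main setting Mitf (1.35) and Aldh1a3 (1.71) were higher, and Vax1 (-1.20) and Nr2e1 (-1.66) lower.

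Hesx1, a homeobox gene of the anterior forebrain and pituitary primordium, gave a difference that was nearly equal in both sorts. It read 3.20 and -5.19 in RAX-negative cells, 2.79 and -5.46 in RAX-positive cells, -2.44 with the inhibitor alone, and -5.73, -1.11 and -5.37 in the tissues. Both activin arrays stood above the other 6, which all read below -1. The difference was 8.39 ± 0.33 (336-fold) in RAX-negative cells and 8.26 in RAX-positive cells.

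Neural progenitor genes were mixed, set against 14.2% of all genes higher and 19.5% lower. Of 16 genes 3 were higher and 6 lower, with a median of -0.62. Sox1 (-0.43), Sox3 (-0.70), Cdh2, Prom1, Vim (-0.72) and Notch1 were not called. The Notch effector Hes5 read 3.77 and 6.24 in RAX-negative cells and between 4.22 and 6.59 on the other 6 arrays, 5.55-fold lower, and its ligand Dll1 read 0.71 and 3.27, 5.89-fold lower. Hes1 was 3.31-fold higher. Fabp7, a radial glial lipid-binding protein, was 11.3-fold, Nes 4.03-fold and Msi1 2.82-fold lower.

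Other signalling pathways were higher in part, read against 14.2% of all genes higher. Of 15 Wnt antagonists and targets 9 were higher and 1 lower (median 1.22), although both cultures held the Wnt inhibitor: the antagonists Dkk1 and Frzb were 23.7-fold and 8.77-fold higher, the transcription factor Tcf7 15.2-fold, the receptor Lgr5 8.55-fold and Sp5 4.05-fold, while the common readout Axin2 (0.76) was not called. Of 13 Fgf ligands and targets 7 were higher and 1 lower (median 1.34), among them Etv5 (9.82-fold), and Spry2, Spry1 and Etv4 with differences of 1.89, 1.83 and 1.69. Of 14 BMP genes 3 were higher, 1 lower and 10 not called (median 0.61): the antagonist Grem1 was 39.5-fold, Bmp2 20.4-fold and the target Id1 4.26-fold higher, and Id4 5.04-fold lower.

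Lists of general cell state and imprinting gave further counts, set against 14.2% of all genes higher and 19.5% lower. Of 16 cell cycle genes 6 were higher and none lower (median 0.93), with the replication genes Mcm5 (1.48) and Mcm4 (1.36) and the mitotic kinases Aurkb (1.59) and Bub1 (1.48), but Mki67 (0.15) was not called, and the number higher ran from 3 to 12 over the settings. Of 9 stress genes 4 were higher and 1 lower, with the amino acid response genes Chac1 (2.31) and Trib3 (2.20) higher and Ddit3 (-1.17) lower. Of 10 hypoxia and glycolysis genes 4 were higher and 1 lower. Of 12 imprinted genes 7 were lower and none higher (median -1.17), Cdkn1c, a growth-restraining inhibitor of the cell cycle, by 6.31-fold, with Peg3 (-1.92) and Dlk1 (-1.35), while H19 (0.84) and Igf2 (0.24) were not called. None of 12 housekeeping genes was called, and their median difference was 0.36, from -0.01 with quantile normalization to 0.70 with median scaling.

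**Figure D4:**
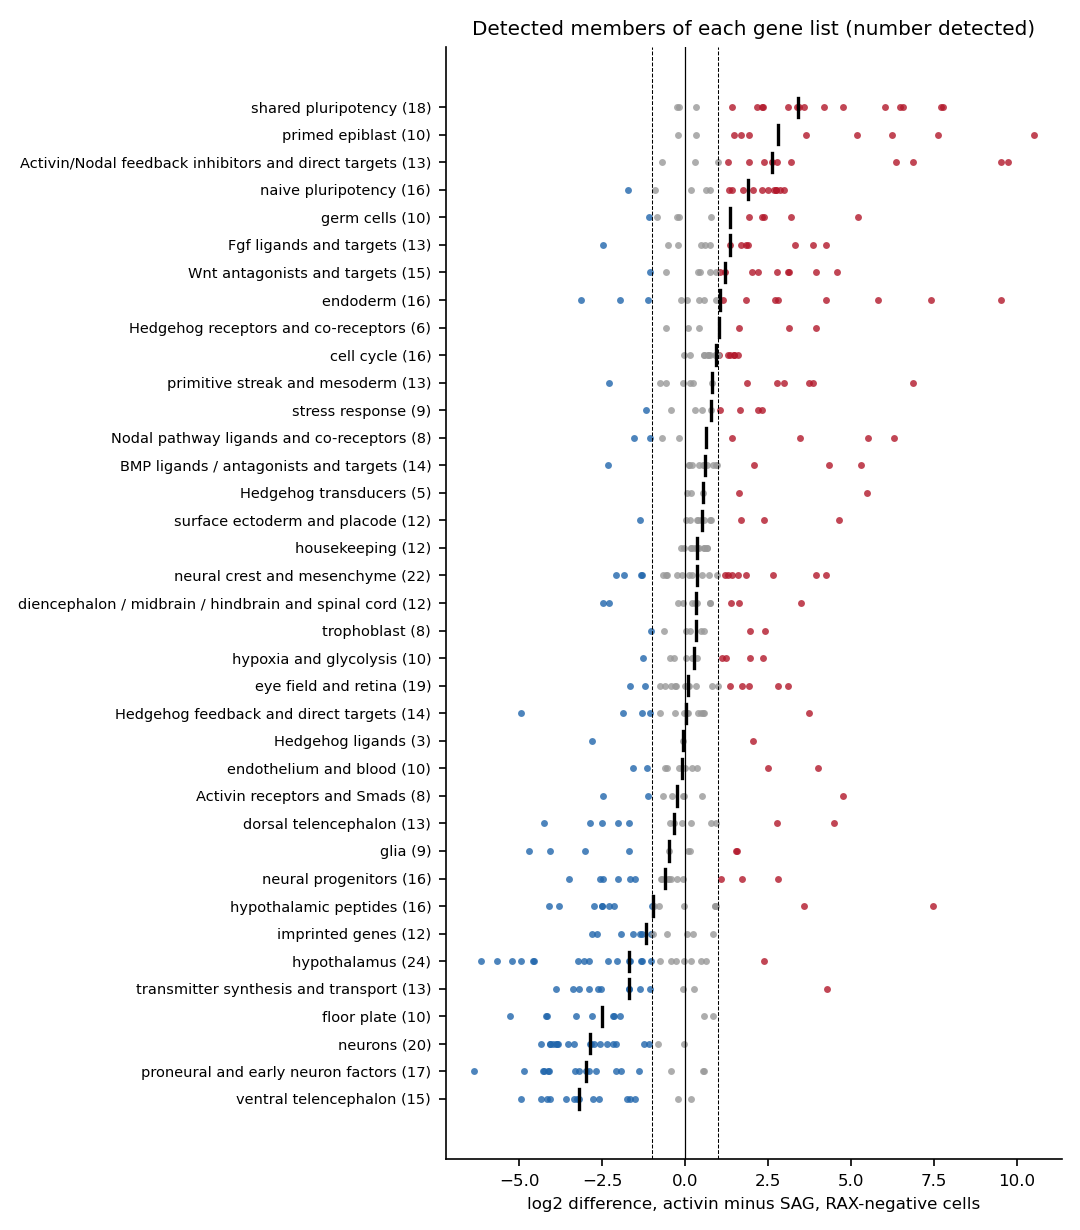
Measured difference, activin minus SAG in RAX-negative cells (log2, horizontal axis), of each detected gene in 37 lists (vertical axis), coloured red where higher, blue where lower and grey where not called, with a black bar at the list's median and dashed lines at -1 and 1. Pluripotency and Nodal target lists have medians from 1.89 to 3.40, and neuron, proneural and ventral telencephalic lists from -3.21 to -2.86.

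Beyond the lists, the highest differences among genes above background on both arrays included Mogat2, an acyltransferase of fat synthesis, 204-fold higher with levels of 4.66 and -3.02, and Zic5, a zinc-finger relative of Zic2, 70.7-fold, with 2 further probes at 6.64 and 6.68. Calcr, the calcitonin receptor, was 67.9-fold higher, at 3.75 against -2.34, and was not called in RAX-positive cells (-0.51). Spint1, an inhibitor of epithelial serine proteases, was 61.2-fold higher. On the other side Vtn (vitronectin) was 53.4-fold lower, Foxd2 39.3-fold, the calcium channel subunit gene Cacna2d3 37.1-fold and the POU factor Pou2f2 28.5-fold. Gpr17 and Prdm13 were at least 63.0-fold and 50.9-fold lower.

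The RAX-positive cells, measured on their own pair of arrays, gave a different balance: 18.7% of 29090 detected genes were higher and 6.58% lower with activin, 25.3% in either direction. Of 24871 genes detected in both pairs, 1364 were higher in both, 37.5% of the RAX-negative and 25.1% of the RAX-positive higher calls. A further 1081 were lower in both, 21.7% and 56.4% of the lower calls. Another 862 were lower in RAX-negative and higher in RAX-positive cells, and 34 the reverse. The RAX-positive activin array had 44.2% of olfactory and vomeronasal receptor genes above background, and the part of that array in these counts was not tested.

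Set side by side, Nodal targets were higher in 10 of 13 detected genes in each sort, and neuronal genes lower in 18 of 20 and 16 of 20. The shared pluripotency genes were higher in 15 of 18 in RAX-negative cells and 7 of 16 in RAX-positive cells, where Pou5f1 was 2.82-fold higher and L1td1 differed by -0.19. Ventral telencephalic genes were lower in 13 of 15 and 4 of 15, and hypothalamic genes in 16 and 9. Eye-field genes were higher in 5 of 19 and 12 of 18: Mab21l1 differed by -0.30 and at least 5.58, and Hmx1 by 0.33 and 5.03. For Mab21l1 the RAX-positive SAG array was not well above background. The difference between the sorts was not tested, as each rests on 1 array a side.

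**Figure D5:**
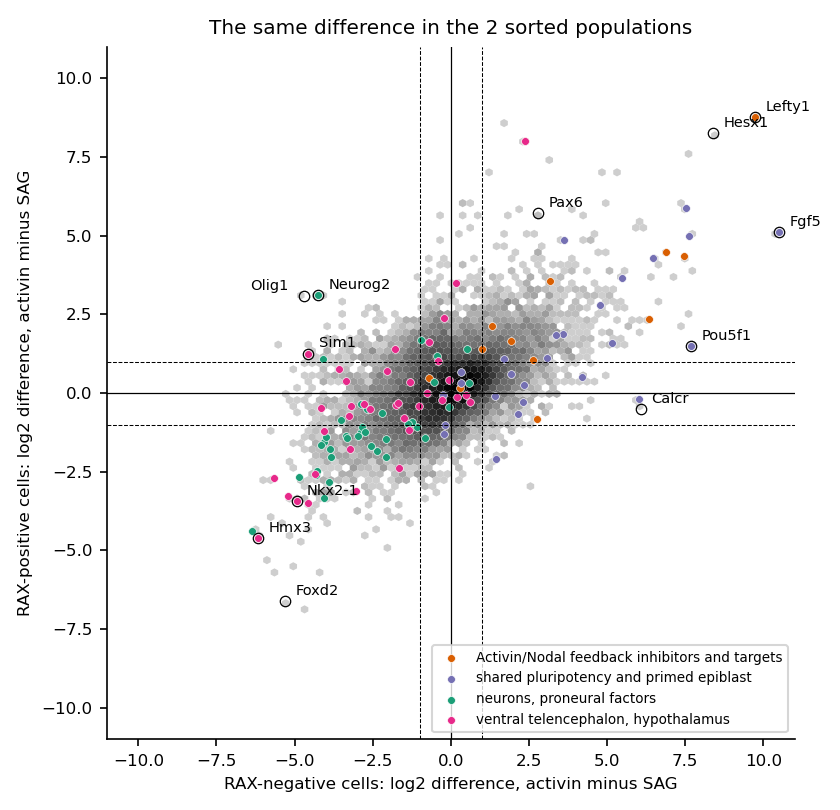
Difference, activin minus SAG, in RAX-negative (horizontal axis) and RAX-positive cells (vertical axis), log2 with the dimmer side raised to its array's detection level, for all genes detected in both (grey) and 4 classes of listed genes (coloured), with the labelled genes circled. Lefty1 and Hesx1 lie far up and to the right, Hmx3, Nkx2-1 and Foxd2 down and to the left, and Neurog2, Olig1 and Sim1 in the quadrant lower in RAX-negative and higher in RAX-positive cells.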

How the data were processed

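RNA of 8 samples, 1 array each, was hybridised to 1-colour mouse arrays. The deposited files hold the scanner's processed intensity of each spot, read with Agilent Feature Extraction (version 10.7.3.1 per the file headers and 9.1 per the submitters' processing notes), with probe positions on mm9. The authors' deposited value table holds log2 values of the same arrays, which were not centred (column medians 6.36 to 6.40); limma is named for it in the submitters' processing notes, and the sources used here do not give its background step or offset. It served as an alternative: 55419 of its 55682 rows matched probes, and each column correlated best with its own array (r from 0.977 to 0.991 across probes).

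From the deposited intensity, control spots and spots flagged as outliers were left out and repeated spots averaged. The log2 intensity was set against the array's 75th percentile. Where several probes named a gene, the one with the largest mean level on the 8 arrays stood for it, with 55419 probes for 34652 genes, 27927 named through RefSeq accessions (GRCm38.p6) and 27492 by the file's name. A further 262 probes were left out because all their spots were outliers on some array. Genes named in the text were all those of 37 lists plus those ranked highest or lowest. The rankings were by the difference, by its gap between the sorts, and by the difference shared by both sorts. The lists, and the genes named, were chosen with earlier results of these data known. Scripts used Python 3.11.15, pandas 2.3.3 and numpy 2.4.6, with R 4.3.3 and limma 3.58.1 for normexp, and were tested on simulated data. Groups came from the labels. Each sample pools RNA of 3 experiments or embryos into 1 array, so there is no replicate spread and no test, and errors are those of the scanner's error model. The number of arrays limits the precision. Alternatives were other scalings, normexp, quantile normalization, other probe rules, filters and thresholds. Some genes are not reported here.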

Additional observations from a re-analysis of the deposited data

Results flagged for a closer look

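For 19 named genes the difference between activin and SAG passed 2-fold in opposite directions in RAX-negative and RAX-positive cells. Of these, 16 were lower and 3 higher with activin in RAX-negative cells. Some genes were named because their gap between the sorts was among the largest, so the count is partly set by that choice. Over all 24871 genes detected in both pairs, 862 were lower in RAX-negative and higher in RAX-positive cells, and 34 the reverse. The difference between the sorts was not tested. Values below give the RAX-negative difference first and the RAX-positive difference second, on the log2 scale, with an array not well above background raised to its detection level, which makes the size of the difference a lower bound.

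Neurogenic and patterning factors were among them. Neurog2 differed by -4.24 and 3.103, Ebf3, an early neuron factor, by -4.10 and 1.10, and the oligodendrocyte lineage genes Olig1 and Olig2 by -4.70 and 3.08 and by -4.08 and 3.01. Sim1 and Otp, which act together in neuroendocrine neurons of the hypothalamus, differed by -4.56 and 1.25 and by -1.78 and 1.404. The floor plate factor Ferd3l differed by -2.56 and 1.34, Vax1, a ventral eye and forebrain factor, by -1.20 and 1.63, and Nr2e1, a factor of neural and retinal progenitors, by -1.66 and 1.34.

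Genes of neuronal function did the same. The peptide precursors Cartpt and Pmch differed by -2.50 and 2.37 and by -2.29 and 1.03, and Tph2, which makes serotonin in neurons, by -1.63 and 1.66. The GABA receptor subunit gene Gabrr3 differed by -5.53 and 1.65, Nrn1 by -3.57 and 2.94, Elmod1 by -4.03 and 2.04, and Wnt7b by -3.36 and 2.47. For Gabrr3, Ferd3l, Otp and Tph2 the larger measurement errors, 1.16, 1.06, 0.58 and 1.46 in RAX-negative cells, accompany activin levels not well above background. The RAX-negative activin level of Elmod1 was not well above background either, with an error of 0.36.

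In the other direction, the Wnt receptor Fzd10 differed by 2.64 and -2.89, the homeobox gene Irx3 by 1.62 and -1.62, and Pou3f1 by 1.46 and -2.09. Beside all of these stands the share of olfactory and vomeronasal receptor genes above background, 44.2% on the RAX-positive activin array against 23.8% on its SAG partner, and the part of that array in the opposite directions was not tested.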

How the results depend on the processing

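No paired analysis was possible because each group is 1 array. The counts over all genes, 3635 higher and 4978 lower, moved by more than 1.5 times with median scaling (6044 higher), with normexp (2176 higher), with a limit of 2 on the log2 scale (1226 higher and 2362 lower), and for the lower genes when both arrays had to be above background (2568) or the authors' deposited log2 table was used (3013). Of 303 named genes called in the main setting, 284 kept their call with median scaling, 291 with quantile normalization, 295 with the percentile over probes detected on all arrays, and 284 of 302 in the authors' deposited table. With normexp 261 of 294 kept it, and Car9 and Clec18a changed sign (-0.18 and -0.053). Genes named in the report whose difference was under 1 with normexp included Aurkb (0.15), Gdf3 (0.63), Dppa4 (0.76), Mael (0.88), Dmrt3 (0.98), Wnt3 (0.99) and Gdf1 (-0.98), beside Pax6, Mitf, Aldh1a3, Hnf4a and Gata4. With median scaling Acvr2a (-0.77), Ddit3 (-0.83), Gdf1 (-0.72), Vax1 (-0.86), Nkx2-2 (-0.96) and Ccnd1 (-0.72) were within the rule. With quantile normalization Mcm4 (0.92) was, and with the mean of all probes Acvr2a (-0.81), Msi1 (-0.65) and Aldh1l1 (0.64) were. Where probes sharing a 16-base run with at least 10 genes were avoided, an alternative chosen after seeing the data, 302 kept it and Trp63 turned to 0.091. The medians of the pluripotency, Nodal target, neuronal, proneural and ventral telencephalic lists kept their sign in all 12 settings. Signal near background limits the lower genes: 2410 of the 4978 rest on an activin level not well above background.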

Other observations

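Gene families outside the lists, chosen after their values were seen, gave further groups in RAX-negative cells, where 19.5% of all genes were lower and 14.2% higher. Of 33 detected clustered protocadherins, adhesion molecules that give neurons their surface identity, 28 were lower and 1 higher with activin (median -2.91), and in RAX-positive cells 25 of 35 were lower and 1 higher. Their members are near copies, so single values are uncertain. Of 12 other protocadherins 3 were lower and 1 higher (median -0.68).

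Genes of excitable membranes were lower in part, read against 19.5% of all genes lower and 14.2% higher in RAX-negative cells. Among 80 potassium channel genes 31 were lower and 15 higher (median -0.75), among 16 GABA receptor subunits 9 and 2 (median -1.81), among 18 glutamate receptor subunits 9 and 1 (median -0.91), and among 18 sodium and calcium channel genes 9 and 1 (median -0.95). Axon guidance genes of the semaphorin and plexin families were lower in 11 of 30 cases and higher in 3 (median -0.48). Of 39 Hox genes on the array 12 were detected, and by measured differences 7 were lower and 3 higher (median -1.30). For Hoxa2, called lower, the measured -2.31 became -0.07 with the dimmer array at its detection level. In RAX-positive cells 14 of 22 Hox genes were higher and none lower, against 18.7% and 6.58% of all genes. The RAX-positive activin array had 44.2% of olfactory and vomeronasal receptor genes above background. Ribosomal protein genes stood at a median of 0.47, with 3 of 76 higher and none lower, close to the 0.36 of the housekeeping list.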
